A study of Homo sapiens with 16 samples.

Results

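Polycomb repressive complex 2 (PRC2) is the enzyme complex that places H3K27me3, histone H3 trimethylated at lysine 27, a mark of silenced genes. EZH2 or EZH1 carries the methyltransferase activity, SUZ12 holds the complex together, EED binds H3K27me3 and stimulates the enzyme, and RBBP4 binds histones. Accessory subunits make alternative forms of the complex: JARID2 and AEBP2 belong to one form, and the Polycomb-like proteins MTF2, PHF1 and PHF19 to the other. KDM6B works in the opposite direction, removing methyl groups from H3K27. The chromatin of the 10 genes that encode these subunits was examined here, 10 of 20098 protein-coding genes on chromosomes 1 to 22 and X. The genes were chosen by the function of their products, with no measured value in the rule, but with earlier results of these data known.

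The data were 16 CUT&Tag libraries of BE2C, an established human neuroblastoma line with amplified MYCN. In CUT&Tag an antibody guides a transposase to the mark, which cuts and tags the DNA around it. Antibodies to H3K27me3 and to H3K4me1 (histone H3 monomethylated at lysine 4, found at enhancers and beside active promoters) gave 8 libraries each. For each mark, 4 groups of 2 replicates were profiled: cells given a control siRNA (siCtrl), cells given siKDM6B33, a single siRNA to KDM6B, for 72 h, cells given 0.1% DMSO, and cells treated for 72 h with 2.5 µM GSK-J4, which inhibits KDM6 demethylases. All groups were the same line, and the 2 experiments had separate controls. The study describes the replicates as biological ones, and the labels do not say how they were grown. The lists hold no transcript levels, so the knockdown itself could not be checked in them.

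Each library came as a list of broad islands and a list of narrow peaks. Island coverage is the percent of a gene and its 5-kb flanks that lies under islands, and a start was called covered where an island reached within 1 kb of a transcription start. Narrow peaks were counted by their centres. A gene was called higher where both treated libraries lay above both controls, and lower in the opposite case, and a start was gained where both treated and neither control library covered it, and lost in the opposite case. With 2 against 2 libraries an exact two-sided permutation test cannot give a p below 0.333, so every difference called here has exact p = 0.333 and none can pass 0.05. The share of protein-coding genes called by the same rule is given beside the main counts. For coverage its denominator is the genes with an island in any library compared, and for narrow peaks those with a peak. For covered starts it is all protein-coding genes with an annotated start. The H3K27me3 lists held 7175 to 16676 islands and 29752 to 61200 narrow peaks, and the H3K4me1 lists 17765 to 24917 islands and 61087 to 131341 narrow peaks. GSK-J4 H3K27me3 replicate 1 stood apart, with 16676 islands of median length 3000 bp beside 7175 to 8006 islands of median length 6600 to 7400 bp in the other 3 H3K27me3 libraries of that experiment. Of the marker genes of this line, MYCN was covered over 95.6% by both marks in every library. MYCN is amplified here, and the part of its copy number in this identical coverage was not tested, so its islands are not read as either mark. HAND2, GATA3 and ISL1 had H3K4me1 coverage of at least 17.6% in every library, and PTPRC and CD3E of blood cells were at 0 throughout. EPCAM, a gene of epithelial cells, reached 10.3% H3K4me1 coverage at most.

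All positions are from hg19, and gene bodies from the GENCODE 44 annotation on that build. The catalytic genes are EZH2 at chr7:148504349-148581413 and EZH1 at chr17:40852293-40897067. The core genes are SUZ12 at chr17:30264026-30328057, EED at chr11:85912254-85989855 and RBBP4 at chr1:33116743-33151812. The accessory genes are JARID2 at chr6:15246300-15522273, AEBP2 at chr12:19556979-19873735, MTF2 at chr1:93544792-93604636, PHF1 at chr6:33378176-33384230 and PHF19 at chr9:123617929-123657174. They run from 6.06 kb (PHF1) to 316.8 kb (AEBP2), so 1 island is a larger percent of a short gene. The canonical starts of EED, AEBP2 and PHF19 lie inside the annotated gene, downstream of a longer transcript's start. The windows also hold coding genes beside EZH1 (CNTNAP1), RBBP4 (ZBTB8OS and SYNC), JARID2 (DTNBP1) and PHF1 (KIFC1 and CUTA among others).

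The promoters of 5 subunit genes that gained an H3K4me1 island at their start after knockdown are shown first, with that of SUZ12, where no island of either mark was called in any library. Each window runs from 250 bases before the canonical start to 50 after it, 5′ to 3′ along the gene, read from hg19. Capitals mark a match to an E2F core word (TTTCCCGC, TTTGGCGC, TTTCGCGC or TTTGCCGC) or to the E-box CACGTG, each searched on both strands.
EZH2, chr7:148581334-148581633, minus strand: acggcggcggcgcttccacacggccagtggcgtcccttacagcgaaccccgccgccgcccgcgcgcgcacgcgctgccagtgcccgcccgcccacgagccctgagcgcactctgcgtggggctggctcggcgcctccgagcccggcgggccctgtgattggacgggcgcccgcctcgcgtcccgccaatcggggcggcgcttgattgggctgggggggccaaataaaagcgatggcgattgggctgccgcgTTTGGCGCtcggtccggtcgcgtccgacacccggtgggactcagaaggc
EZH1, chr17:40897009-40897308, minus strand: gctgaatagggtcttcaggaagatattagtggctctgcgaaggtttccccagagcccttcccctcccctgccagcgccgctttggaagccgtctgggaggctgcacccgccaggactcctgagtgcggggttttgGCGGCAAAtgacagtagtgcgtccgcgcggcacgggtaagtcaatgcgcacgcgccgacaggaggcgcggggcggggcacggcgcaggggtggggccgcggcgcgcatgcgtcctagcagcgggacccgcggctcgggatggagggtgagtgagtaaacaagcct
EED, chr11:85955545-85955844, plus strand: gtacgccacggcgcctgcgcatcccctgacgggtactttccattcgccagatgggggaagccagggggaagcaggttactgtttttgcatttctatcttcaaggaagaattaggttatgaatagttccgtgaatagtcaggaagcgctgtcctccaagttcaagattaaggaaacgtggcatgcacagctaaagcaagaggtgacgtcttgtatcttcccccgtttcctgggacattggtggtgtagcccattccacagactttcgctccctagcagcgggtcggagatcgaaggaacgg
RBBP4, chr1:33116559-33116858, plus strand: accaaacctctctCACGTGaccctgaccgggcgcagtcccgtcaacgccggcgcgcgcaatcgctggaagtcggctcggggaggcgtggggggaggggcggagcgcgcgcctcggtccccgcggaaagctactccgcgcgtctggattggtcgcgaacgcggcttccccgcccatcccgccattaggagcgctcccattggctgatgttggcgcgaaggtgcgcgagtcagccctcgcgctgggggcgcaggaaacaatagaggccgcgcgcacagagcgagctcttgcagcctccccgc
MTF2, chr1:93544590-93544889, plus strand: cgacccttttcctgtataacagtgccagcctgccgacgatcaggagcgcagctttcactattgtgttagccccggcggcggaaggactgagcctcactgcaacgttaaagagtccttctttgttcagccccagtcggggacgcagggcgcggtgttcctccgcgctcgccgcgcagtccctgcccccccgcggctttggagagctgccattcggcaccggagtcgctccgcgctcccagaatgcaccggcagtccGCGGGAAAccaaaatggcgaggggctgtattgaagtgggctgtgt
SUZ12, chr17:30263776-30264075, plus strand: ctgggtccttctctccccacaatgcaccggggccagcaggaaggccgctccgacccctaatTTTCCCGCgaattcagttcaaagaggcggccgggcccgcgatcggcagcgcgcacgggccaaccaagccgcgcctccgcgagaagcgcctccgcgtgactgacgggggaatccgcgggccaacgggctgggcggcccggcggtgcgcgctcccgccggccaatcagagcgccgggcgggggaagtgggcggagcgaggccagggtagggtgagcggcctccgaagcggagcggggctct

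An E2F word was present in 5 of the 10 promoters, beside 4.38% of 19819 protein-coding promoters of the same length. In EZH2 it began 1 base after the start, and in MTF2 5 bases after it. The word lay 115 bases before the start in EZH1, 189 bases before it in SUZ12 and 152 bases before it in PHF19. The E-box was found in the RBBP4 promoter alone, 237 bases before the start, beside 8.76% of all promoters. The windows held 16 (EED) to 48 (PHF19) CG dinucleotides, with a median of 35 beside 23 over all promoters, and CG dinucleotides inside the words are counted in these numbers. The E2F words and the E-box did not overlap each other. A word is a description of the letters and not a binding site: of the 5 promoters with an E2F word, EZH2, EZH1 and MTF2 gained H3K4me1 after knockdown, SUZ12 had no island, and the PHF19 start was covered in both siCtrl and both siKDM6B33 libraries.

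To ask what KDM6B knockdown did to H3K4me1 at these genes, the 4 libraries of that comparison were set side by side. Islands appeared over the starts of EZH2, EZH1, EED, RBBP4 and MTF2 in both siKDM6B33 libraries and in neither siCtrl library, 5 of 10 members, beside 30.2% of 19747 protein-coding genes. No member lost a covered start, beside 0.744% of genes. Starts gained H3K4me1 across the genome in this comparison, so the members' gain was part of a wide one, and no test set them apart from other genes. At equal covered length the EZH2 start was not among those gained, and the other 4 were, beside 24.0% of genes. The same 5 starts had no H3K4me1 island in the DMSO and GSK-J4 libraries.

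**Figure D1:**
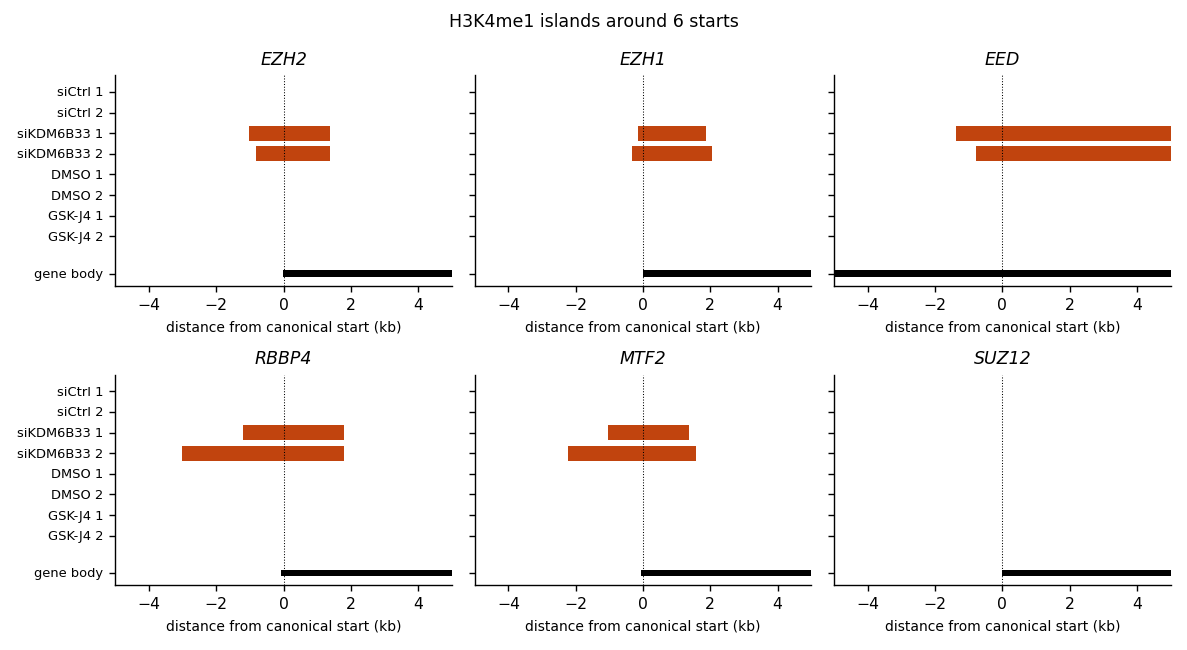
H3K4me1 islands of the 8 libraries around the canonical starts of 6 subunit genes, plotted as distance from the start in kb along the gene, with the annotated gene body in black. Islands lie over the starts of EZH2, EZH1, EED, RBBP4 and MTF2 in the 2 siKDM6B33 libraries alone, and SUZ12 has none.

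At EZH2 the gained island ran from -1.02 to 1.38 kb around the start. It covered 2383 and 2200 bp of the start window in the siKDM6B33 libraries and 0 in both controls. At EZH1, the less active methyltransferase of the pair, the island covered 1152 and 1352 bp. At the core genes the covered lengths were 2471 and 2265 bp at EED and 2215 bp in both libraries at RBBP4. The RBBP4 islands merged to a region from -3.01 to 1.79 kb, and since ZBTB8OS lies beside this start an island here is not assigned to one gene. At MTF2 the lengths were 2068 and 2077 bp. In all 5 genes the 2 treated libraries were alike and lay apart from the controls.

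The tags under the summit of the strongest narrow peak at each start give the size of the signal, also where a peak but no island was called. Of the 10 members, 7 had more tags in both siKDM6B33 libraries than in both siCtrl libraries, beside 82.2% of 13923 genes with a start peak. None had fewer, beside 3.26%. RBBP4 went from 4 and 5 tags with siCtrl to 41 and 44 with siKDM6B33, a ratio of means of 9.44. That was the greatest ratio of the members and above that of 93.8% of genes with a peak in both groups, whose median ratio was 3.44. EZH2 had 4 tags in siCtrl replicate 1, no peak in replicate 2, and 11 and 10 tags after knockdown. EZH1 had 7 tags in each control and 27 and 22 after knockdown. EED had 6 in each control against 23 and 27, and MTF2 5 and 10 against 27 and 28. PHF1 had 2 tags and no peak with siCtrl and 7 and 8 tags after knockdown but no island. SUZ12 had 4 tags in 1 siKDM6B33 library and no start peak in the other 3.

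JARID2 had 8 and 15 tags at its starts with siCtrl and 30 and 23 with siKDM6B33. AEBP2 (5 and 3 against 4 and 5 tags) and PHF19 (13 and 26 against 24 and 20) overlapped between the groups. For these genes the peak was taken at any annotated start, which for AEBP2 was not the same start in every library, and with the canonical start alone AEBP2 and PHF19 also had more tags after knockdown. The background of the siKDM6B33 libraries was higher, 0.107 and 0.105 tags beside 0.0902 and 0.0849. After dividing by it the same 7 members had more tags. The share over all genes was not computed for the canonical start alone or after this division.

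**Figure D2:**
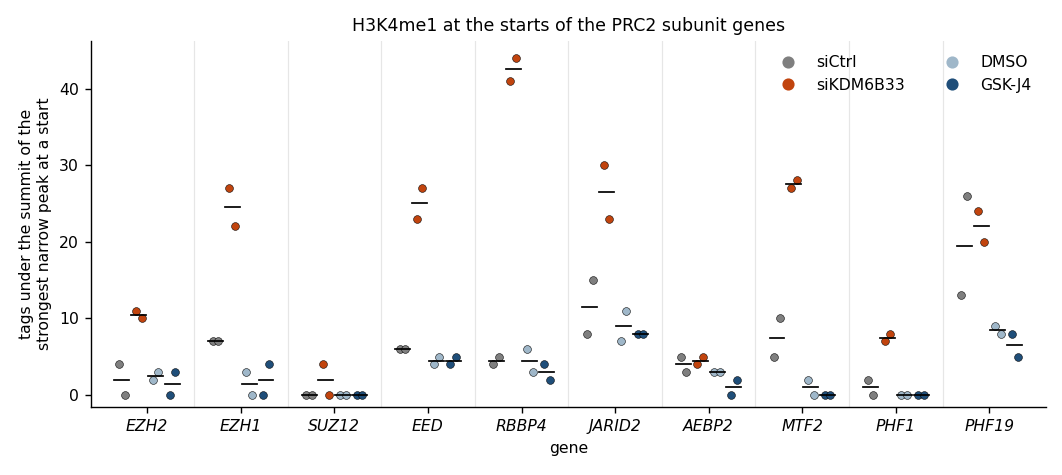
Tags under the summit of the strongest H3K4me1 narrow peak within 1 kb of a start, for the 10 genes in each of the 8 H3K4me1 libraries, with 0 where no peak was called and a bar at the mean of the 2 replicates. RBBP4 stands at 41 and 44 tags after knockdown and at 6 or fewer in the other 6 libraries, and the PHF19 groups of the knockdown experiment overlap.

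Island coverage over whole genes gave a mixed picture for the catalytic subunits. EZH2 had 4.37% and 7.58% coverage with siCtrl and 8.27% and 7.12% with siKDM6B33, and the groups overlapped (5.97 ± 2.27% and 7.70 ± 0.812%, SD, n = 2 per group, exact permutation p = 0.667). Besides its start, EZH2 carried an H3K4me1 region inside the gene, 32.6 to 39.0 kb downstream of the start, in all 8 H3K4me1 libraries, with 2800 to 4800 bp covered. An intronic region at 22.8 to 25.2 kb, of 2400 bp, was called in siCtrl replicate 2 alone, and without that library, or without siKDM6B33 replicate 2, EZH2 was higher after knockdown. EZH1 had 4.75% and 4.02% with siCtrl and 3.65% and 4.38% with siKDM6B33. Here a gain and a loss stood against each other: the start was covered only after knockdown, while a region at the 3′ end, 44.1 to 47.1 kb from the start and next to CNTNAP1, was covered over 2600 and 2200 bp with siCtrl, over 1400 to 3000 bp in the 4 libraries of the compound experiment, and not at all with siKDM6B33.

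For the core genes, EED had no H3K4me1 coverage with siCtrl and 7.99% and 7.53% with siKDM6B33, and RBBP4 none with siCtrl and 6.66% and 10.7% after knockdown. SUZ12 stayed at 0 in all 16 libraries, for both marks. Among the accessory genes, JARID2 had the widest H3K4me1 of the 10 genes in every library. It went from 39.0% and 34.8% with siCtrl to 50.3% and 51.3% with siKDM6B33 (36.9 ± 2.97% and 50.8 ± 0.742%, SD, n = 2 each), a difference of 13.9 percentage points and the largest of the members. It had 51 and 57 narrow peaks with siCtrl and 77 and 76 with siKDM6B33. MTF2 went from 0 in both controls to 3.44% and 5.44%, and AEBP2 from 0.979% and 1.29% to 3.18% and 1.653%. PHF1 had no island. PHF19 had 15.0% and 14.2% with siCtrl and slightly less, 13.4% and 13.0%, with siKDM6B33.

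In all, 5 of the 8 members with an island were higher after knockdown (EED, RBBP4, JARID2, AEBP2 and MTF2), beside 66.5% of genes, and 1 was lower (PHF19), beside 13.8% of genes. The PHF19 call was not made with 10 kb each side, and the score of its island at the canonical start was higher after knockdown, 661.1 and 753.0 beside 290.3 and 341.7 with siCtrl. For narrow peaks, 3 of 10 members had more (EED, JARID2 and PHF1), beside 44.6% of genes, and none had fewer, beside 13.6%. With peaks at −log10 q of at least 5 alone, 7 of 9 members had more, beside 62.3% of genes. EED had 1 and 2 peaks with siCtrl and 6 and 4 with siKDM6B33. The mean coverage difference was 3.60 points over the 10 members and 5.15 over all genes, and the medians were 1.5 and 1.06. AEBP2 was not among the higher members with equal numbers of islands or at equal covered length. Its difference was 0 at equal covered length and 0.520 points without siKDM6B33 replicate 1, beside 1.29 with all libraries.

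**Figure D3:**
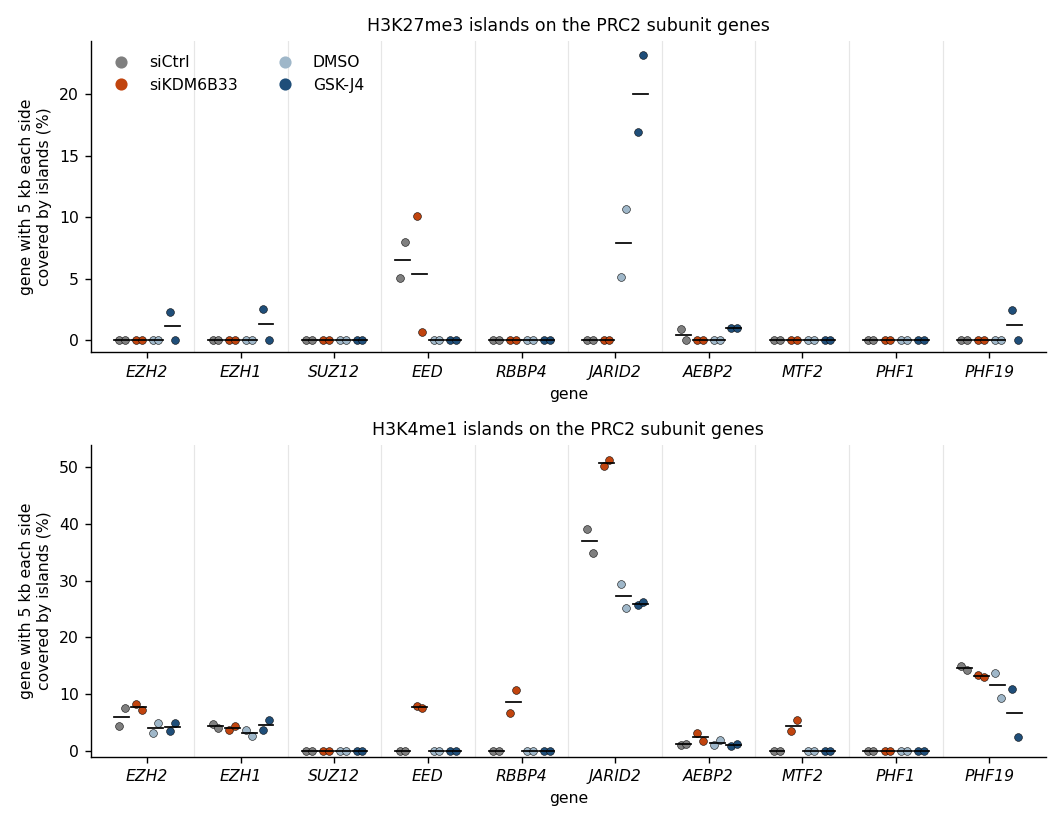
Percent of each subunit gene, with 5 kb on each side, covered by H3K27me3 islands (upper) and H3K4me1 islands (lower), with 1 point per library and a bar at the mean of 2 replicates. JARID2 is the gene with the widest H3K4me1, at 25.1% to 51.3%, and has H3K27me3 in the DMSO and GSK-J4 libraries alone, while SUZ12 and PHF1 are at 0 for both marks.

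To ask what the inhibitor did, GSK-J4 was compared with DMSO. H3K27me3 coverage was higher at 2 of the 5 members with an island (JARID2 and AEBP2), beside 14.3% of genes, and lower at none, beside 10.5%. JARID2, which helps to recruit the complex and to start its activity, had H3K27me3 coverage of 5.11% and 10.6% in the DMSO libraries and of 16.9% and 23.1% after GSK-J4 (7.87 ± 3.91% and 20.0 ± 4.40%, SD, n = 2 per group, exact permutation p = 0.333). The groups did not overlap, and the difference of 12.2 points was between 9.06 and 15.3 points when each library was left out in turn, 15.3 without GSK-J4 replicate 1. With the same lowest island score of 97.2 in all 4 lists it was 11.3 points, and the same 2 members were higher. It was smaller when the lists were made alike: 4.86 points at equal covered length, where the groups still did not overlap, and 8.99 points with equal numbers of islands, where they did. The GSK-J4 libraries also had the higher background, 0.0507 and 0.0371 tags beside 0.0298 and 0.0338 with DMSO, and its part in the result was not tested beyond these settings.

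AEBP2 had no H3K27me3 island with DMSO and 0.979% coverage in both GSK-J4 libraries, from 1 intronic region 133.6 to 136.8 kb downstream of the start. The AEBP2 difference of 0.979 points was 0 with equal numbers of islands and 0.490 at equal covered length, where the groups overlapped. EZH2 (2.30%), EZH1 (2.56%) and PHF19 (2.44%) had an H3K27me3 island in GSK-J4 replicate 1 and were at 0 in the other 7 H3K27me3 libraries. That library is the one whose island list stood apart. Without GSK-J4 replicate 2, 5 of 5 members with an island were higher, beside 45.3% of genes with an island. EZH2, EZH1, AEBP2 and PHF19 had no island with DMSO. They entered this count only through GSK-J4 replicate 1 and could only be called higher, so the count shows no excess. Narrow peaks of H3K27me3 were more numerous at 3 of 7 members (RBBP4, JARID2 and AEBP2), beside 19.9% of genes, and fewer at none, beside 2.99%. JARID2 had 10 in each DMSO library and 23 and 11 after GSK-J4, AEBP2 had 1 and 1 against 7 and 6, and RBBP4 had 0 and 0 against 2 and 1. Many of these peaks were weak. In GSK-J4 replicates 1 and 2, peaks with 3 tags or fewer at the summit made up 5 of 7 and 5 of 6 at AEBP2, 3 of 23 and 6 of 11 at JARID2, and all of those at RBBP4. With peaks at −log10 q of at least 2 alone, RBBP4 was the 1 member of 7 with more, beside 18.9% of genes, and at 5 or above it was JARID2, 1 of 4, beside 13.1%. Over all annotated starts no member gained or lost a covered start for H3K27me3, beside 0.886% and 0.132% of genes.

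The JARID2 islands of H3K27me3 were spread along the gene, mostly in introns. In the 4 libraries of the compound experiment they merged into 12 regions, and the 4 libraries of the knockdown experiment had none of them. Regions at 138.5 to 148.3 kb and at 191.1 to 202.1 kb downstream of the start were called in all 4 libraries of the compound experiment. The DMSO libraries covered 3400 and 5600 bp of the first and the GSK-J4 libraries 7000 and 8400 bp. They covered 3400 and 3600 bp against 9000 and 11000 bp of the second. At 152.5 to 160.3 kb (4800 and 7600 bp) and at 181.1 to 188.7 kb (4200 and 7200 bp) an island was called in both GSK-J4 libraries and in neither DMSO library. The first region after the start, 0.701 to 15.5 kb, was covered over 13800 bp in DMSO replicate 2 and 3600 and 14800 bp with GSK-J4. Within 1 kb of the canonical start the groups did not overlap: GSK-J4 replicate 1 had an island from -1299 to -300 bp and GSK-J4 replicate 2 one that began at 701 bp, while the DMSO replicate 2 island began at 1701 bp and DMSO replicate 1 had none there. JARID2 was the 1 member of 10 gained with the canonical start alone, beside 0.817% of genes. It was not gained over all annotated starts, since the DMSO replicate 2 island covered its other start window.

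**Figure D4:**
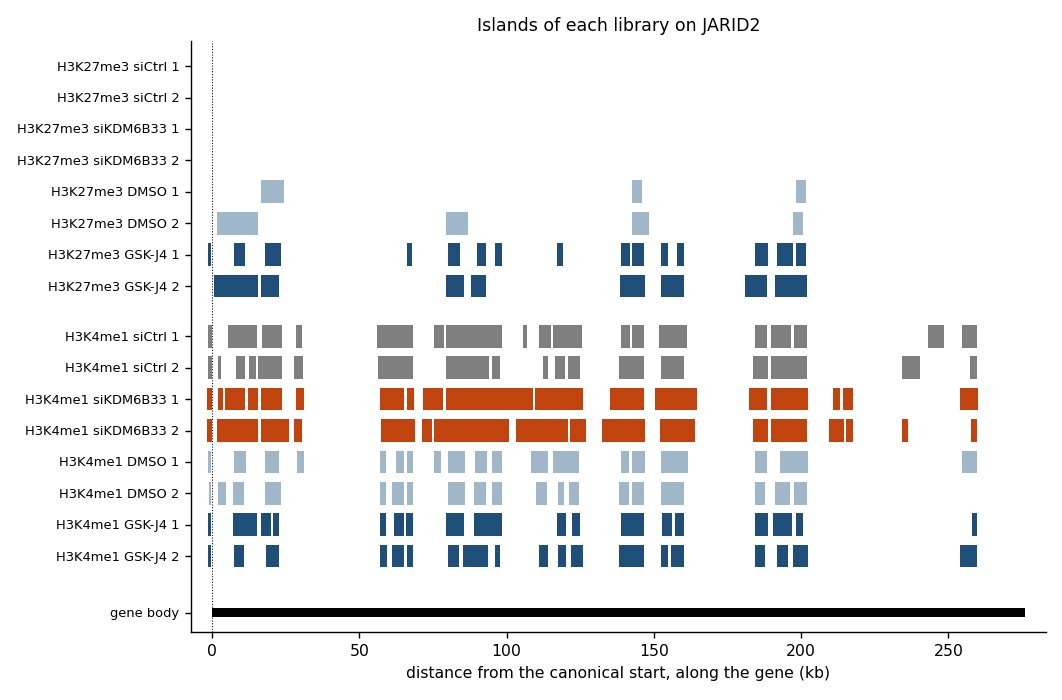
Islands of each of the 16 libraries along JARID2, as distance from the canonical start in kb, with the gene body in black below. H3K27me3 islands are seen in the DMSO and GSK-J4 libraries, are more numerous or longer with GSK-J4, and stand mostly where the H3K4me1 libraries below also have islands.

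The H3K27me3 regions of JARID2 lay largely inside its H3K4me1 regions. Counting bases called in both replicates, H3K27me3 covered 6.0 kb with DMSO, of which 6.0 kb was also covered by H3K4me1, and 40.0 kb with GSK-J4, of which 34.4 kb (86.0%) was. H3K4me1 covered 63.4 kb and 56.8 kb. With siCtrl and siKDM6B33 H3K4me1 covered 86.6 and 130 kb and H3K27me3 none. The strongest H3K27me3 narrow peak of the gene lay at 198862 bp from the start in DMSO replicate 1, at 198871 bp in GSK-J4 replicate 1 and at 198863 bp in GSK-J4 replicate 2, with 8, 14 and 10 tags. The strongest H3K4me1 peak lay at 198860 bp in DMSO replicate 1 and at 198871 bp in GSK-J4 replicate 1, with 20 tags in each. The strongest peaks of the 2 marks lay apart in the other libraries, at 144230 bp (H3K27me3, 10 tags) and 199086 bp (H3K4me1, 18 tags) in DMSO replicate 2, and in GSK-J4 replicate 2 at 198863 bp and at 8109 bp (H3K4me1, 14 tags).

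Shared summits were counted for all members. Of the H3K27me3 narrow peaks in the windows of the 10 genes, 45.5% to 66.7% had an H3K4me1 summit within 100 bp in the library of the same treatment and replicate, over 9 to 40 peaks a library. The shares over all protein-coding gene windows were 17.2% and 16.5% with siCtrl, 32.2% and 31.2% with siKDM6B33, 42.6% and 35.7% in the DMSO libraries, and 41.8% and 42.1% after GSK-J4. At JARID2 they were 16 of 23 and 8 of 11 peaks with GSK-J4 and 5 of 10 and 6 of 10 with DMSO. The part of these shared summits in the H3K27me3 coverage was not tested.

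H3K27me3 islands were few on the subunit genes in the knockdown experiment. Of the 10 genes 2 had an island, and 0 of the 2 were higher (beside 35.4% of genes) or lower (beside 11.5%). EED, the subunit that reads H3K27me3, was covered over 5.02% and 7.99% with siCtrl and over 10.1% and 0.685% with siKDM6B33, and the groups overlapped (exact permutation p = 1.0). At equal covered length EED was lower after knockdown. A region upstream of its canonical start and inside an intron of a longer transcript, -10.6 to -2.20 kb, was covered over 3400 and 6400 bp with siCtrl, over 7800 bp in siKDM6B33 replicate 1 and not at all in replicate 2. A short island at the canonical start covered 600 to 1000 bp in all 4 libraries. The H3K27me3 peak under it had its summit at -208 or -241 bp from the start in the 4 libraries of this experiment, with 8 to 10 tags, and the H3K4me1 peak at -211 to -241 bp, with 6 tags in each siCtrl library and 23 and 27 with siKDM6B33. AEBP2 had 0.918% in siCtrl replicate 1 and 0 in the other 3 libraries.

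Narrow peaks of H3K27me3 after knockdown were more at 1 of 6 members, PHF19 (1 and 1 against 3 and 2), beside 14.1% of genes, and fewer at 1, AEBP2 (3 and 3 against 1 and 2), beside 5.47%. Those counts are low, and neither was seen with peaks at −log10 q of at least 5. No member gained or lost a start covered by H3K27me3, beside 1.33% and 0.461% of genes. The mean difference was -0.160 points over the members and 1.26 over all genes.

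For H3K4me1 after GSK-J4 the coverage of the treated and control libraries overlapped at every member. None of the 5 members with an island was higher (beside 22.8% of genes) or lower (beside 17.7%). JARID2 had 29.4% and 25.1% in the DMSO libraries and 25.7% and 26.2% after GSK-J4. EZH2 had 3.22% and 4.82% against 3.45% and 4.82%, EZH1 3.65% and 2.56% against 3.65% and 5.48%, and AEBP2 0.979% and 1.90% against 0.857% and 1.22%. PHF19 had 13.8% and 9.34% in the DMSO libraries and 10.97% and 2.44% after GSK-J4, where replicate 2 had lost the island over the canonical start that the other 7 libraries had. The counts of narrow peaks overlapped at all 8 members with a peak, beside 13.4% of genes with more and 8.23% with fewer. AEBP2 gained an island at an upstream start, -37.6 to -35.8 kb from the canonical one, which covered 601 and 401 bp of the start window. The island scores were 63.6 and 53.5, beside lowest scores of 51.6 and 52.2 in those lists, and at equal covered length the start was not gained. This was 1 of 10 members, beside 0.598% of genes, and no member lost a covered start, beside 2.27%. For tags at the strongest start peak, 1 member had fewer, AEBP2, beside 15.1% of genes, and no member had more, beside 6.58%. The AEBP2 peaks lay at other starts than the gained island, at 22722 and 22718 bp in the DMSO libraries (3 tags each) and at -239 bp in GSK-J4 replicate 2 (2 tags), with none in replicate 1, so they do not measure a single start. With the canonical start alone AEBP2 was not among those with fewer.

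**Figure D5:**
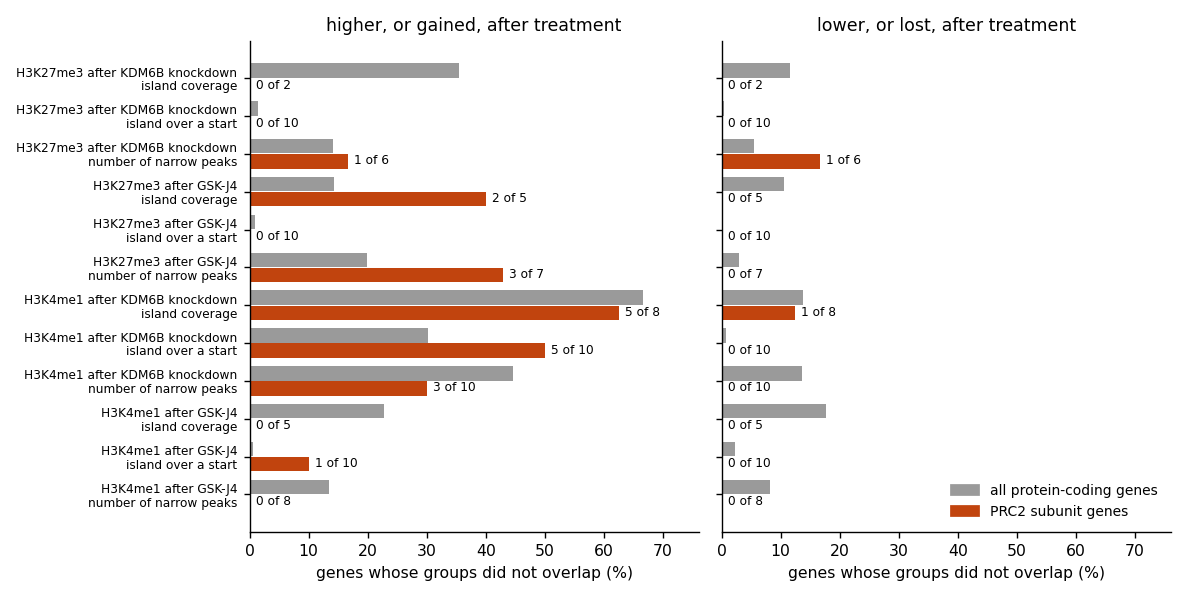
Percent of genes whose treated and control libraries did not overlap, for all protein-coding genes (grey) and the subunit genes (red, with the count), in each comparison and for island coverage, islands over a start and the number of narrow peaks, higher or gained on the left and lower or lost on the right. Each pair of bars has its own denominator, which for coverage and narrow peaks is the genes with an island or a peak. The members' bars rest on 2 to 10 genes.

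The order of the genes by H3K4me1 coverage was JARID2, PHF19, EZH2, EZH1 and AEBP2 in the siCtrl and DMSO groups, with SUZ12, EED, RBBP4, MTF2 and PHF1 at 0. The coverage of JARID2 was above that of 91.2% of protein-coding genes with siCtrl and 90.6% with DMSO, and that of PHF19 above 81.5% with DMSO. EZH2 (4.37% and 7.58%) and EZH1 (4.75% and 4.02%) overlapped with siCtrl, as they did with DMSO, and could not be ordered. After knockdown RBBP4 (8.65 ± 2.82%, SD, n = 2), EED (7.76 ± 0.323%) and EZH2 (7.70 ± 0.812%) overlapped one another behind JARID2 and PHF19. Over all 16 libraries, the gene whose island coverage was most like that of EZH2 was GNAQ, with a mean absolute difference of 0.451 points, then MTMR14 (0.514) and TTC39A (0.525), and 178 genes lay within 1 point. For EZH1 these were ITGB3 (0.276), PLPP1 (0.350) and BLM (0.406), with 272 genes within 1 point.

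Related genes were described by the same rule: 28 genes of other PRC2 subunits, of PRC1, the complex that binds H3K27me3 and ubiquitinates histone H2A, and KDM6A, another H3K27me3 demethylase of the KDM6 family. After knockdown, H3K4me1 coverage was higher at 18 of the 24 with an island, beside 66.5% of all genes with an island, and lower at 1, beside 13.8%. Of the 28, 11 gained a covered start, beside 30.2% of genes. BMI1, a PRC1 subunit, went from 0 in both controls to 56.8% and 47.9%, and EPOP, a PRC2 cofactor, from 0 and 22.6% to 57.3% and 48.3%. RBBP7, the close relative of RBBP4, went from 0 in both to 19.5% and 13.6%. H3K27me3 coverage was lower at 2 of the 5 related genes with an island, beside 11.5% of all genes with an island, and higher at none, beside 35.4%. At BMI1 it went from 19.7% and 14.8% to 0 in both.

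After GSK-J4 H3K27me3 was higher at 2 of the 13 related genes with an island, beside 14.3% of all genes with an island, and lower at 3, beside 10.5%. EPOP went from 28.7% and 31.7% in the DMSO libraries to 18.1% and 0, and PCGF2 from 51.9% and 55.0% to 57.3% and 83.5%. PHC2 went from 0 and 4.77% to 6.98% and 12.1%. For H3K4me1, 3 of 14 were higher, beside 22.8% of genes, and 3 were lower, beside 17.7%. Among the greatest differences were those at BCOR (46.1% and 44.1% against 38.8% and 39.0%), CBX8 (57.7% and 60.8% against 62.8% and 65.9%) and PHC2 (14.0% and 12.1% against 16.9% and 14.0%).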

How the data were processed

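CUT&Tag of H3K27me3 and H3K4me1 was analysed in 16 libraries of BE2C cells, grouped by their titles. The authors aligned reads to hg19 with BWA (0.7.12), removed duplicates with Picard (1.65) and kept fragments of 150 to 2000 bp. The authors called islands per library with SICER (1.1, 200-bp window, 600-bp gap), and the deposited score is the caller's sum over windows. The authors called narrow peaks with MACS2 (2.1.1 per the labels, q threshold 0.05), and the deposited lists give a fold enrichment (a ratio to the library's background), −log10 p and −log10 q. The lists were not scaled by the authors' E. coli spike-in and hold no reads per region, so the authors' linear models were not used.

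Island coverage, covered starts and narrow peaks were computed with SciPy 1.17.1, pandas 2.3.3 and NumPy 2.4.6 under Python 3.11.15, over GENCODE 44 gene models on GRCh37, the build of the lists. The fold and −log10 p of a peak together fix the whole number of tags at its summit and its background, and the lowest common background stands for depth (0.0298 to 0.107 tags). Start tags, their alternatives and the common score floor were added after seeing the data. Groups were compared by whether they overlapped and by exact two-sided permutation tests. All 10 members are named, with up to 4 related genes per comparison of the greatest difference and the 3 genes most like EZH2 and EZH1 in coverage. Some genes that these rules and the marker list name are not reported here. The members and lists were chosen with earlier results of these data known. The scripts were tested on simulated lists. The alternatives were other gene windows, start sets, island lists made alike, stricter peaks, each library left out and same-numbered pairs. The labels do not say whether replicate numbers pair the libraries, and the main calls did not pair them. Intervals for counting error need reads and were not computed.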

Additional observations from a re-analysis of the deposited data

Results flagged for a closer look

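The number of H3K27me3 narrow peaks at AEBP2 differed in opposite directions in the 2 experiments, which is why it is listed. It was lower after KDM6B knockdown by a mean difference of -1.5 peaks (3 and 3 with siCtrl, 1 and 2 with siKDM6B33) and higher after GSK-J4 by 5.5 peaks (1 and 1 with DMSO, 7 and 6 with GSK-J4). Of the GSK-J4 peaks, 5 of 7 and 5 of 6 had 3 tags or fewer, and AEBP2 was not called higher with peaks at −log10 q of at least 2 or of at least 5. The lower count after knockdown was not called at 5. The difference between the experiments was not tested.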

How the results depend on the processing

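Of 360 alternative values, 292 kept their direction or stayed within 1.5 times the main count, and 68 moved. Only the coverage differences of single genes could be labelled reversed, and 0 were. The 292 include counts that were 0 in both settings. They also include coverage differences under the replicate block, which that setting cannot change. The 5 H3K4me1 starts gained after knockdown, the 5 members higher and the 7 with more start tags stayed within 1.5 times throughout. The genes were not always the same: at equal covered length the EZH2 start was not gained, and AEBP2 was not higher there or with equal numbers of islands. Counts of 10 genes change with 1 gene, the libraries differed in depth, and the cause of each change below was not tested. For most of these settings the share over all genes was not computed. Their counts describe the members alone and cannot be set against other genes.

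For H3K27me3 after knockdown, 1 member was lower in coverage (EED) and 1 start was lost (EED) at equal covered length, against 0. Narrow peaks were more at 0 members under a −log10 q of 2 or of 5 as the minimum, and fewer at 0 under 5 and at 2 (JARID2, AEBP2) in gene bodies alone. For H3K27me3 after GSK-J4, higher members were 0 with equal numbers of islands and 1 (JARID2) at equal covered length, 1 start (JARID2) was gained with the canonical start alone, and more narrow peaks were seen at 1 (RBBP4) under a −log10 q minimum of 2 and at 1 (JARID2) under one of 5. For H3K4me1 after knockdown, 0 were lower with 10 kb each side, 7 had more narrow peaks under a −log10 q minimum of 5, and 1 (AEBP2) had fewer with peaks joined within 100 bp or in gene bodies alone. For H3K4me1 after GSK-J4, lower members were 1 (AEBP2) in gene bodies alone and 2 (AEBP2, PHF19) at equal covered length, the start gained by AEBP2 went to 0 with the canonical start alone and at equal covered length, 1 (PHF19) had fewer narrow peaks under a −log10 q minimum of 2 or of 5, and fewer start tags were seen at 0 under a −log10 q minimum of 5 or the canonical start alone and at 2 after dividing by background.

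Leaving out 1 library at a time gave, for H3K27me3 after knockdown, 0 to 1 higher and 0 to 1 lower in coverage, and 1 to 2 with more and 1 to 2 with fewer peaks. For H3K27me3 after GSK-J4 it gave 2 to 5 higher (5 without GSK-J4 replicate 2: EZH2, EZH1, JARID2, AEBP2 and PHF19), 0 to 1 starts gained and 0 to 1 with fewer peaks. For H3K4me1 after knockdown it gave 1 to 2 lower, 4 to 5 with more peaks, 0 to 1 with fewer peaks and 0 to 1 with fewer start tags. For H3K4me1 after GSK-J4 it gave 0 to 2 higher, 1 to 2 lower, 0 to 2 with more and 1 to 4 with fewer peaks (4 without DMSO replicate 2), and 0 to 1 with more and 2 to 4 with fewer start tags.

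The labels do not say whether same-numbered replicates were grown or processed together. The correlations of their deviations were -0.0155, 0.0789, -0.00479 and -0.0465, which cannot show how the libraries were made. With the replicate block, 1 member (AEBP2) had fewer H3K4me1 peaks after knockdown, and after GSK-J4 2 (AEBP2, PHF19) were lower in H3K4me1 coverage and 3 (RBBP4, AEBP2, PHF19) had fewer start tags. It moved no other count beyond 1.5 times.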
